A study of Mus musculus with 9 samples.

Results

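The 937 open regions on chromosome 5 were followed across 9 libraries of mouse melanoma cells profiled by ATAC-seq, which sequences the DNA that a transposase can reach. In each library the 9214 most significant peaks were used, which is the length of the shortest list, and overlapping peaks were merged into regions. The 937 regions are those of the 15643 in all that lie on chromosome 5 (5.99%), and 249 of them were called in all 9 libraries, against 4486 such regions in the genome. The members were selected on the position and the −log10 p of peaks, and chromosome 5 was chosen by its group differences in earlier results of these libraries. Its group differences are therefore given as a description, with no test, and the question asked of them is whether the shift covers the whole chromosome or a segment.

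All cells came from the B16 line, and tumours were taken on day 15 after mice had been injected, then sorted. B16_untreated is strain B16 with no treatment, B16_IFNg is strain B16 kept in interferon gamma before injection (2 weeks for replicates 1 and 2, 3 weeks for replicate 3), and Res499 is the B16-derived strain 499, which resists immune checkpoint blockade and had no treatment. Each group has 3 libraries, and nothing in the labels says that these came from separate mice or cultures, so the spread between them may be technical. Res499 is 1 derived line, so what is particular to the line and what goes with resistance cannot be told apart. The melanocyte regulator Mitf and the pigment gene Pmel had an open region in all 9 libraries, and Sox10 and Mlana had none. Of the other melanocyte markers, Dct had one in 2 libraries of each group, Tyr in 1 library of each group, and Tyrp1 in 3 B16_untreated, 2 B16_IFNg and 0 Res499 libraries. The 5 leukocyte and 2 endothelial markers had none in any library. Of 3 fibroblast markers, Col1a1 alone had a region, in 2 B16_IFNg libraries and 1 Res499 library. These calls depend on the cutoff. In the full lists, which differ in length, Col1a1 and Tyr each had a peak in 3 B16_untreated, 3 B16_IFNg and 1 Res499 libraries. Dct had one in 3 libraries of each group, and Tyrp1 in 3, 2 and 1 in the same order. Sox10 had one in 1 B16_untreated library and Mlana in 1 Res499 library.

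Open regions of dividing cells sit mostly at gene starts, where transcription factors and the transcription machinery keep nucleosomes away, and at enhancers between and inside genes. The number of fragments at a site depends on how open it is and on how many copies of that DNA the cell holds. Changes shared by a long stretch of a chromosome are therefore read differently from changes at single promoters. Chromosome 5 of the mouse carries receptor tyrosine kinase genes such as Kit and Pdgfra, clusters of interferon-induced genes (the chemokines Cxcl9 and Cxcl10, the guanylate-binding Gbp genes and the Oas family), and many housekeeping genes.

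A coding gene started or ended within 1 kb of 536 of the 937 regions (57.2%), hereafter regions at a gene end. The remainder comprised 246 (26.3%) inside a gene away from its ends and 155 (16.5%) between genes. For the regions of the other chromosomes these shares were 54.8%, 24.8% and 20.4%. Of the 249 regions called in every library, 214 (85.9%) lay at a gene end, while this held for 39 of the 202 regions (19.3%) called in a single library. A region lay near an end of 606 of the 1269 coding genes of the chromosome (47.8%). The median region was 646 bp wide.

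The promoters of 8 genes whose regions carry the results below are shown first, from RefSeq on build GRCm38.p6, each from 250 bases before to 50 after the annotated start and written 5′ to 3′ on the gene's strand. Capitals mark matches on either strand to 6 motifs: ISRE (GAAA, any 2 bases, GAAA), GAS TTCNNNGAA, AP-1 TGANTCA, E-box CACGTG, M-box CATGTG and CRE TGACGTCA. Med28 (chr5:45519979-45520278, plus strand), Hectd4 (chr5:121219969-121220268, plus) and Psmc2 (chr5:21785025-21785324, plus) stand for regions that all Res499 libraries had and no B16_untreated library had among its used peaks.
Med28: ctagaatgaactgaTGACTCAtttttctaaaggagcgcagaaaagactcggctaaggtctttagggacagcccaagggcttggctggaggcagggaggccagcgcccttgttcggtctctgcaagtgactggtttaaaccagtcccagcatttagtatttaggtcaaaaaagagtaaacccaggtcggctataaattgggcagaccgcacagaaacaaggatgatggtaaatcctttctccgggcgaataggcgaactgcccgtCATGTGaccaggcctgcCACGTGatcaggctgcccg
Hectd4: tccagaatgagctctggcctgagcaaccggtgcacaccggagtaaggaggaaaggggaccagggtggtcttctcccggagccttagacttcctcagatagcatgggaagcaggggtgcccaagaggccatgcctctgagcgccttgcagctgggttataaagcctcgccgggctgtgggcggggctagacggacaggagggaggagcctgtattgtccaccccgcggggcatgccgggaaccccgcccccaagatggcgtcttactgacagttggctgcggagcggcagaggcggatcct
Psmc2: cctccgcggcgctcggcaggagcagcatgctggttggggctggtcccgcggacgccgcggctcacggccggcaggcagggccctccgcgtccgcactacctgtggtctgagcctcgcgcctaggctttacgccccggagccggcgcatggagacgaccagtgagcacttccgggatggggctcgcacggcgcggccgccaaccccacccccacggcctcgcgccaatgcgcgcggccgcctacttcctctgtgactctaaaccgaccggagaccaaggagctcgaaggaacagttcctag
Pclo (chr5:14514668-14514967, plus), Afap1 (chr5:35893069-35893368, plus), Bcl7b (chr5:135168122-135168421, plus) and Cenpc1 (chr5:86065534-86065833, minus) stand for regions called in every library that ranked higher in each Res499 library than in any B16_untreated library.
Pclo: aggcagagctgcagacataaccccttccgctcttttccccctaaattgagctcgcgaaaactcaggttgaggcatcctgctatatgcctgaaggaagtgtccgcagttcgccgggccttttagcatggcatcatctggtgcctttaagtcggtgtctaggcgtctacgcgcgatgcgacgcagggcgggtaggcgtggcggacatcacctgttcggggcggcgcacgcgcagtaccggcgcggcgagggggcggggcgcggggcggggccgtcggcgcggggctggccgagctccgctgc
Afap1: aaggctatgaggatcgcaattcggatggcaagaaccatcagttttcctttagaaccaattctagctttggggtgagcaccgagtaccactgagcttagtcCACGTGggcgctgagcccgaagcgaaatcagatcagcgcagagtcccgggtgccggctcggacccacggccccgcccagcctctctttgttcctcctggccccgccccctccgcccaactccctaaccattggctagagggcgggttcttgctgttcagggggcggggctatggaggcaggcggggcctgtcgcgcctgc
Bcl7b: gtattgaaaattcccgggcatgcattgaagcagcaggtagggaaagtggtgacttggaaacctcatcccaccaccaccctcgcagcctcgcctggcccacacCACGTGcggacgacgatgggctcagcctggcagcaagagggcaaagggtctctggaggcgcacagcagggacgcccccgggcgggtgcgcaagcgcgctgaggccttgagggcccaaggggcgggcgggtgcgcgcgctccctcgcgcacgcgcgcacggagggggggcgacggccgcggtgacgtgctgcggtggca
Cenpc1: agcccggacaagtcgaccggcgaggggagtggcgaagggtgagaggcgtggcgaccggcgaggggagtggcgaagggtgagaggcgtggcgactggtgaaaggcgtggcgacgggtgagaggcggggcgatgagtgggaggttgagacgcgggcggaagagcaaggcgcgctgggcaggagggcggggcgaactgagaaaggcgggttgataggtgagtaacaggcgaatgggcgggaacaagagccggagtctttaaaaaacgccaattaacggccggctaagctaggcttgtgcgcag
Cenpa (chr5:30666636-30666935, plus) stands for those that ranked lower.
Cenpa: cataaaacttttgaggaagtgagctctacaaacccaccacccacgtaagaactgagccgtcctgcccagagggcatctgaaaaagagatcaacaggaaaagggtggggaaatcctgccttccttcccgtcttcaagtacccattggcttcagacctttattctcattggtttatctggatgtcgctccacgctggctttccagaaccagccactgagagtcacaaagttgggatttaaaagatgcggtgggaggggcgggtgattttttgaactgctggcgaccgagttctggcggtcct
The Med28 promoter holds an AP-1, an M-box and an E-box match, the Afap1 and Bcl7b promoters hold an E-box each, and the other 5 hold none of the 6 motifs. The printed promoters range from 50.7% GC with 10 CpG pairs (Cenpa) to 71% GC with 37 CpG pairs (Psmc2).

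Over the chromosome, 699 RefSeq promoters overlapped a region, with a median GC content of 64.3% and a median of 25 CpG pairs in 300 bases. The promoters with a region on other chromosomes had 62.7% and 23. An E-box was present in 85 of the 699 (12.2%), in 10.9% of the promoters with a region elsewhere and in 7.15% of all promoters. AP-1 matches were in 2.72% of the 699, against 4.07% elsewhere and 7.81% of all promoters. An ISRE-like match was in 2.00%, against 2.56% and 3.44%, and a GAS match was in 6.44%, against 6.33% and 8.30%. M-box matches stood at 7.58% of the 699, 6.97% elsewhere and 14.2% of all promoters, and CRE matches at 3.43%, 3.74% and 1.79%. These matches describe letters in the window and say nothing of which factor was bound.

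Chromosome 5 supplied 534, 493 and 496 of the used peaks in the B16_untreated libraries, 529, 548 and 538 in B16_IFNg, against 582, 608 and 604 in Res499. The share of used peaks was 5.51 ± 0.248% in B16_untreated, 5.84 ± 0.103% in B16_IFNg and 6.49 ± 0.152% in Res499 (SD, n = 3 each). Every Res499 library lay above every library of the other groups, and B16_IFNg and B16_untreated overlapped. The share in Res499 was 1.18 times that of B16_untreated, a difference of 0.980 ± 0.168 percentage points (SE), and 1.11 times that of B16_IFNg, a difference of 0.648 ± 0.106 points. B16_IFNg stood 0.333 ± 0.155 points above B16_untreated. Both Res499 comparisons use the same Res499 libraries and are not independent of each other. The chromosome holds 5.80% of the coding genes.

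The larger share in Res499 was clearest among strong peaks. Among the best 4607 peaks of each list, chromosome 5 made up 5.34%, 5.17% and 4.95% of the peaks in B16_untreated, 4.88%, 5.82% and 5.47% in B16_IFNg, against 6.47%, 6.64% and 6.21% in Res499. Here Res499 lay above all other libraries, with a ratio of 1.25 to B16_untreated. Among the remaining 4607 the ratio was 1.11 and the libraries of the groups overlapped. The cutoff of each list set which chromosome 5 peaks were used. The last used one had a −log10 p of 11.9, 16.5 and 15.1 in B16_untreated, 10.1, 8.03 and 7.46 in B16_IFNg, against 8.77, 4.96 and 8.03 in Res499. The first one left out lay at 11.8, 16.4 and 15.1 in B16_untreated, at 10.1, 8.03 and 7.46 in B16_IFNg, and at 8.75 and 8.02 in Res499 replicates 1 and 3, while Res499 replicate 2 had none to leave out. Over all deposited peaks, where lists hold from 9221 to 25374 peaks, the share was still above the other groups in each Res499 library (6.15%, 6.60% and 6.32%, against at most 6.05%).

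The 249 shared regions also ranked higher in Res499. Each region's percentile rank in a library (100 for the most significant peak) was set against its mean over the 9 libraries, and the median over chromosome 5 was compared with the median over the other chromosomes. This shift was -2.17, -1.94 and -0.52 percentile points in B16_untreated, -2.02, 0.32 and -1.77 in B16_IFNg, against 2.08, 5.0 and 3.80 in Res499. The Res499 libraries lay above all others, by 5.17 ± 0.992 points (SE) over B16_untreated and 4.79 ± 1.13 points over B16_IFNg. With peaks ranked by fold these differences were 2.16 and 3.52 points. B16_IFNg and B16_untreated overlapped, 0.387 ± 0.903 points apart.

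Both the height of these regions and the fragments around them were larger in Res499 relative to the rest of the genome. Solving a peak's fold and −log10 p for 2 unknowns gave its summit pileup, or fragments stacked at the highest base, and the local background used by the caller. The median pileup of the shared chromosome 5 regions was 38, 36 and 40 fragments in B16_untreated, 23, 17 and 23 in B16_IFNg, against 23, 18 and 29 in Res499, which mixes in the depth of each library. Centred on the other chromosomes, the log2 pileup of the chromosome was -0.03, -0.08 and -0.05 in B16_untreated, -0.06, -0.04 and -0.03 in B16_IFNg, against 0.06, 0.10 and 0.09 in Res499. The Res499 pileup was 9.91% above B16_untreated (log2 difference 0.136 ± 0.018, SE) and 9.03% above B16_IFNg (0.125 ± 0.014). B16_IFNg differed from B16_untreated by 0.012 ± 0.017.

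The local background moved by about as much as the pileup. On the centred log2 scale it was -0.03, -0.07 and -0.07 in B16_untreated, -0.02, -0.05 and -0.003 in B16_IFNg, against 0.09, 0.10 and 0.09 in Res499. Res499 stood 0.151 ± 0.014 (SE) above B16_untreated, or 11.1%, and 0.114 ± 0.013 above B16_IFNg, or 8.24%, without overlap in either comparison. B16_IFNg stood 0.037 ± 0.019 above B16_untreated, with overlap. More open chromatin and more copies of the DNA both add fragments to a region and its surroundings, and the peak's own fragments enter its local background, so these cannot be told apart from the peak lists. The median fold over background on chromosome 5 was set beside that of the other chromosomes, with values of 7.03, 5.76 and 5.53 against 6.99, 5.76 and 5.61 in Res499, and 6.72, 11.1 and 8.49 against 6.68, 11.03 and 8.45 in B16_untreated. In B16_IFNg they were 7.56, 7.24 and 6.13 against 7.84, 7.22 and 6.16, with the largest gap of the 9 libraries in replicate 1.

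**Figure D1:**
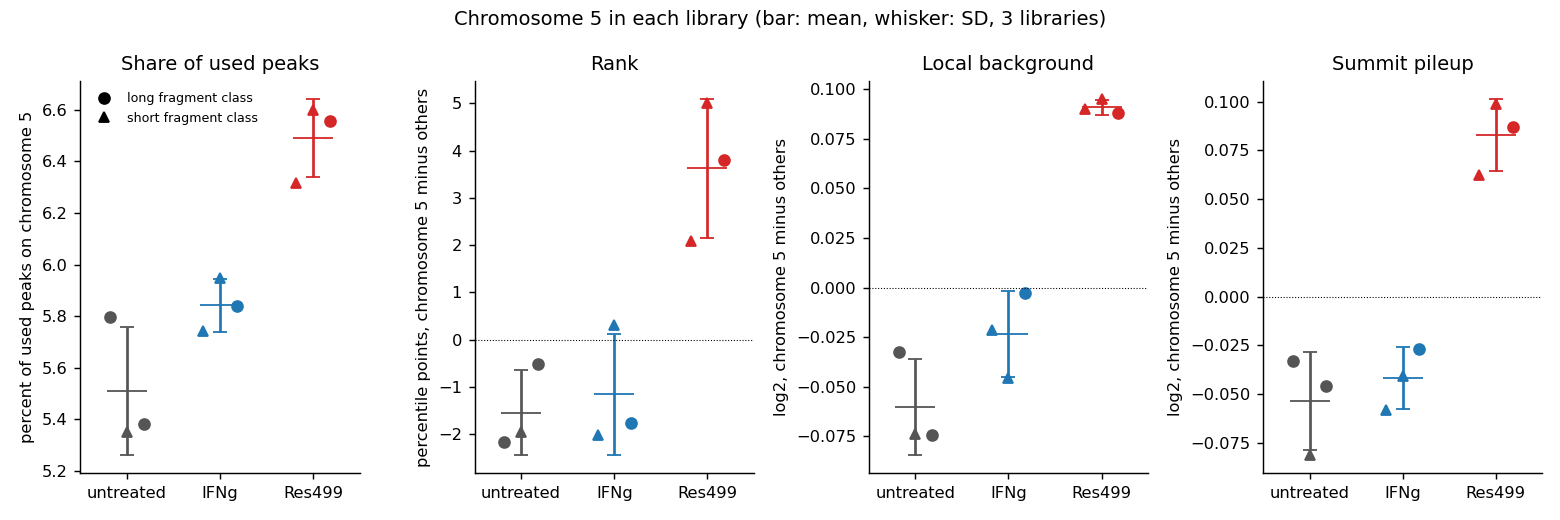
Share of used peaks on chromosome 5 (percent) and its shifts in rank (percentile points), local background and summit pileup (log2) against the other chromosomes, 1 point per library, with group mean (bar) and SD (whisker), n = 3. The 3 Res499 libraries lie above the other 6 in each panel, and circles (long fragment class) and triangles (short class) mix within groups.

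The shortest peak in a list reflects the fragment length set for calling, and it split the libraries at 150 bp into 4 long and 5 short ones, with both kinds in each group. Among the long libraries the chromosome 5 share was 5.80% and 5.38% in B16_untreated, 5.84% in B16_IFNg and 6.56% in Res499. Among the short libraries it was 5.35% in B16_untreated, 5.74% and 5.95% in B16_IFNg, against 6.32% and 6.60% in Res499. The local background shift of Res499 was 0.088 in the long class and 0.090 and 0.095 in the short class, with all 6 other libraries below 0. Between classes the share was 5.89 ± 0.487% (SD, n = 4) and 5.99 ± 0.487% (SD, n = 5), a difference of -0.098 points (p = 0.802 by a two-sided exact permutation test of all 126 arrangements, which could give 0.00794 at the least). This test takes no account of group, and the classes are unevenly spread over the groups. Within groups the long and short means were 5.59% and 5.35% in B16_untreated, 5.84% and 5.84% in B16_IFNg, against 6.56% and 6.46% in Res499, so the sign of the pooled difference is not seen within B16_untreated or Res499.

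Among 20 chromosomes, chromosome 5 stood highest for Res499 against B16_untreated in all 4 measures. Its local background difference of 0.151 compares with 0.067 for chromosome 13, the next, a median of -0.01 over the other chromosomes and -0.13 for chromosome 14, the lowest. In rank the next chromosome was also 13, at 2.30 points against 5.17, and in share it was chromosome 11, at a ratio of 1.05 against 1.18. The lowest in rank was chromosome 14, at -5.78 points with overlap. In share the lowest was chromosome X, at a ratio of 0.662 without overlap, which is further from 1 than chromosome 5. Against B16_IFNg chromosome 5 was again first in all 4 measures, with chromosome 15 next in background at 0.055. In rank chromosome 10 was next, at 3.51 points against 4.79. For B16_IFNg against B16_untreated, chromosome 5 was first in share at 1.06, close to chromosome 11 at 1.05, and was the eighth in rank, the fourth in background and the fifth in pileup. As the chromosome was chosen for this contrast, its place in the order is a description.

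**Figure D2:**
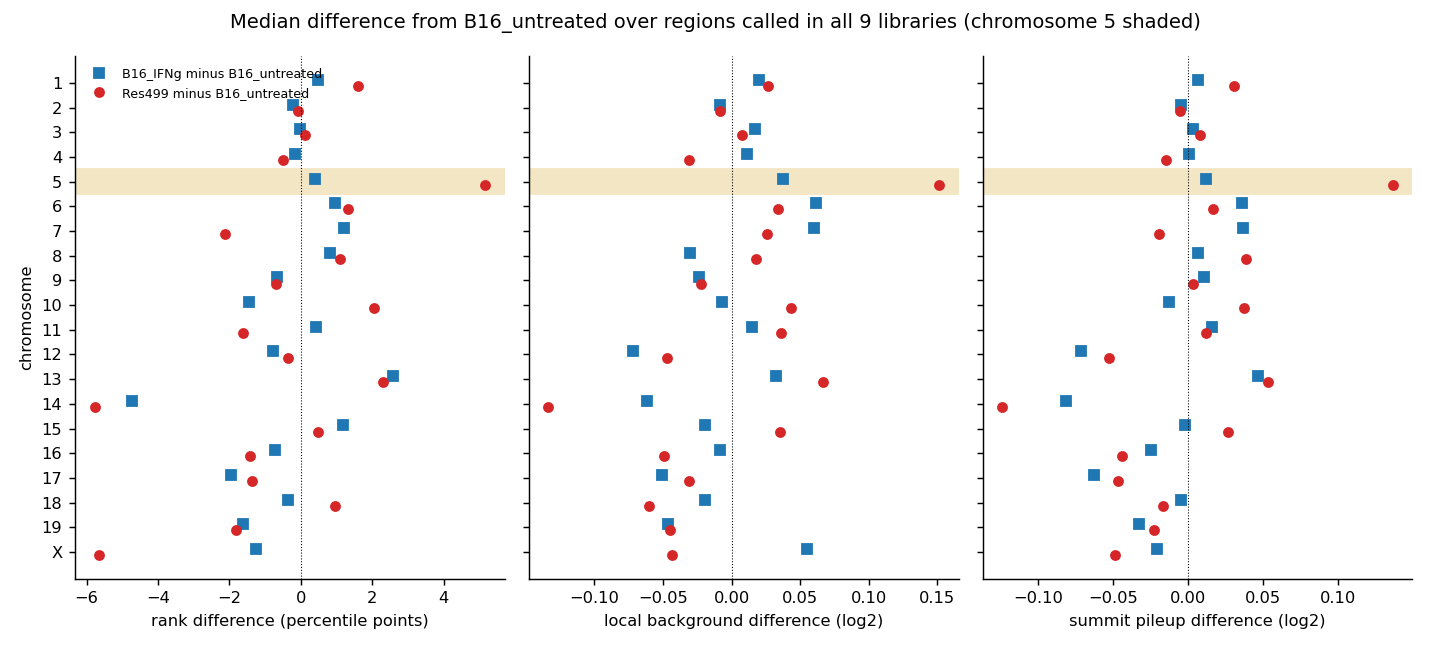
Differences from B16_untreated in rank (percentile points), local background and summit pileup (log2) for each of 20 chromosomes, as group means of 3 libraries over regions called in all 9. Chromosome 5 (shaded) is the rightmost Res499 point in every panel, and its B16_IFNg point lies within the range of the other chromosomes.

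The shift did not have one height along the chromosome. It was cut into 16 windows of 10 Mb, and 15 of them held at least 5 shared regions (window 2 held 2). For Res499 against B16_untreated, the local background was above 0 in 13 of the 15 windows. In 8 of them all Res499 libraries lay above all B16_untreated libraries, and in none below, where 15.2% of all windows of the genome were higher without overlap and 12.3% lower. The count of 8 was 3 with 4607 peaks per library and 3 when a peak had to cover 50% of its region. In rank, 13 of 15 windows were above 0 and 2 were higher without overlap (7.0% of all windows), none lower (3.7%). In used peaks, 13 of 16 windows had a ratio above 1 and 5 were higher without overlap (5.41% of all windows), none lower (5.79%). In pileup 4 windows were higher (9.05%) and 1 lower (7.82%).

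The largest background difference was in window 13 (chr5:120000001-130000000), which holds the Hectd4, Ptpn11 and Oas genes. It had 68, 56 and 60 used peaks in B16_untreated, 68, 72 and 63 in B16_IFNg, against 85, 75 and 84 in Res499. Its local background was -0.05, -0.19 and -0.18 in B16_untreated, -0.07, -0.15 and 0.01 in B16_IFNg, against 0.21, 0.24 and 0.12 in Res499, a difference of 0.331 from B16_untreated. Its rank shift was 11.3 points above B16_untreated, again without overlap. Window 14 (chr5:130000001-140000000) had 66, 68 and 65 used peaks in B16_untreated, 74, 75 and 71 in B16_IFNg, against 87, 83 and 82 in Res499, with a background difference of 0.218. In this window the 3 groups did not overlap in used peaks at all.

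Window 4 (chr5:30000001-40000000), which has the most regions outside windows 13 and 14, had 72, 61 and 60 used peaks in B16_untreated, 63, 74 and 68 in B16_IFNg, against 85, 84 and 71 in Res499. The counts of Res499 and B16_untreated overlapped there, while the local background did not, with a difference of 0.191. Window 1, at the start of the chromosome, stood 0.177 higher in background without overlap, and its used peaks (20, 20 and 18 in B16_untreated against 20, 24 and 21 in Res499) overlapped. The background of B16_IFNg there was also above B16_untreated without overlap, by 0.115, and Res499 and B16_IFNg overlapped. Window 2 is poor in genes and peaks, with 8, 4 and 4 used peaks in B16_untreated against 9, 10 and 9 in Res499, and it contains the Pclo promoter.

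In windows 9 to 11 the background of Res499 and B16_untreated overlapped. It also overlapped in windows 3, 5, 7 and 16, with differences of 0.049, 0.134, 0.106 and 0.077. The difference in window 3 was thus smaller than that in window 11. In window 9 (chr5:80000001-90000000) the used peaks were 11, 13 and 13 in B16_untreated, 12, 12 and 11 in B16_IFNg, against 9, 12 and 10 in Res499, with background differences from B16_untreated of -0.03 in Res499 and 0.093 in B16_IFNg. The background of window 10 differed by -0.04 in Res499 and 0.028 in B16_IFNg. Its 9 shared regions nevertheless had the largest rank difference of any window, 12.3 points above B16_untreated in Res499, without overlap. B16_IFNg was there 7.68 points above B16_untreated, also without overlap, and Res499 and B16_IFNg overlapped. Window 11 had 29, 42 and 42 used peaks in B16_untreated, 35, 43 and 35 in B16_IFNg, against 29, 37 and 37 in Res499. Its background was 0.171 above B16_untreated in B16_IFNg, without overlap, and 0.059 above it in Res499, with overlap. The pileup in window 11 was also the one that was lower in Res499 without overlap (-0.03). In windows 9 and 11 all 3 Res499 libraries lay below all 3 B16_IFNg libraries in background. Window 16, at the far end, had 10, 11 and 11 used peaks in B16_untreated and 7, 10 and 11 in Res499.

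**Figure D3:**
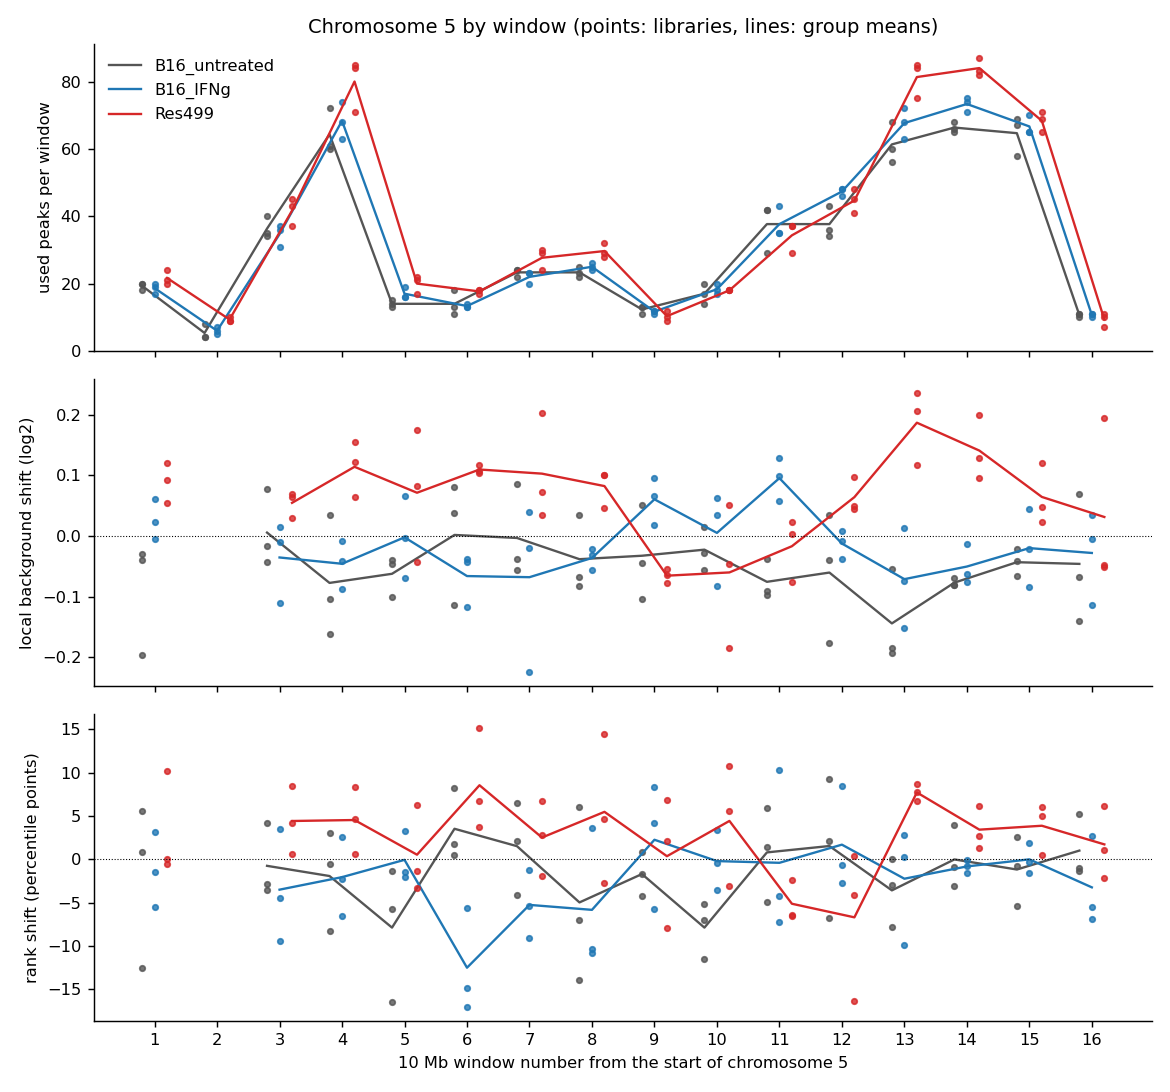
Used peaks, local background shift (log2) and rank shift (percentile points) in each 10 Mb window of chromosome 5, with points for the 9 libraries and lines for the group means. Res499 lies highest in windows 13 and 14 and among or below the other groups in background in windows 9 to 11. Shifts are not drawn for window 2, which has 2 shared regions.

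To put numbers on stretches rather than single windows, 4 were formed after the window values had been seen. From 0 to 80 Mb the chromosome had 221, 191 and 188 used peaks in B16_untreated, 199, 206 and 210 in B16_IFNg, against 237, 263 and 243 in Res499, a ratio of 1.24 of Res499 to B16_untreated. From 80 to 110 Mb it had 57, 75 and 69 in B16_untreated, 64, 73 and 66 in B16_IFNg, against 56, 67 and 65 in Res499, a ratio of 0.935 with overlap. The stretch from 110 to 140 Mb had 177, 158 and 161 in B16_untreated, 190, 193 and 182 in B16_IFNg, against 213, 203 and 214 in Res499. The ratios to B16_untreated there were 1.27 in Res499 and 1.14 in B16_IFNg, with no overlap among the 3 groups. Its first window, window 12, had 43, 34 and 36 in B16_untreated, 48, 46 and 48 in B16_IFNg, against 41, 45 and 48 in Res499. Background in window 12 was 0.124 above B16_untreated in Res499, without overlap. Rank and pileup there were lower, by -8.23 points and -0.08, both with overlap. From 140 to 160 Mb the ratio was 1.03, with 79, 69 and 78 used peaks in B16_untreated and 76, 75 and 82 in Res499.

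The local background of the shared regions also differed least between Res499 and B16_untreated from 80 to 110 Mb. The local background of Res499 exceeded that of B16_untreated by 0.141 from 0 to 80 Mb (103 shared regions), by 0.020 from 80 to 110 Mb (30 regions), by 0.223 from 110 to 140 Mb (79 regions) and by 0.096 from 140 to 160 Mb (37 regions). The groups overlapped in the second stretch alone. There, B16_IFNg stood 0.103 above B16_untreated and Res499 0.083 below B16_IFNg, both without overlap. In rank the Res499 difference was 6.34, 1.63, 5.63 and 3.91 points along the 4 stretches, with overlap in the second and the fourth. By window, the lowest rank differences were in windows 11 and 12, on either side of 110 Mb. They were -5.93 and -8.23 points, both with overlap, so the bounds of the stretches do not follow the rank values. The stretch from 80 to 110 Mb thus had the smallest background difference of the 4, and its bounds were set from the values themselves.

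In each measure a minority of single regions were higher in Res499 without overlap, at shares above those of the genome. Of the 249 shared ones, 23 ranked higher in every Res499 library than in any B16_untreated library, where 5.71% of all 4486 shared regions did so, and 10 ranked lower, where 6.13% did. These are 9.24% and 4.02% of the chromosome's shared regions. In local background 72 were higher (28.9%, against 11.5% of all) and 5 were lower (2.01%, against 9.25%). In pileup 41 were higher (against 7.87% of all) and 4 lower (against 6.02%). The background of Res499 was higher without overlap at 35 of 79 shared regions from 110 to 140 Mb, at 22 of 103 from 0 to 80 Mb, at 11 of 37 from 140 to 160 Mb and at 4 of 30 in the stretch between 80 and 110 Mb. These counts come from the contrast for which the chromosome was picked.

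The widest rank difference was at the promoter of Pclo, which encodes the presynaptic scaffold protein piccolo (chr5:14514664-14515369). Its percentile was 32.8, 74.2 and 53.7 in B16_untreated, 69.4, 89.4 and 1.46 in B16_IFNg, against 98.9, 96.5 and 98.5 in Res499. The 3 Res499 values were tightly placed near the top of the list, while B16_IFNg spread over nearly the whole range. The group means of Res499 and B16_untreated were 98.0 ± 1.32 and 53.6 ± 20.7 (SD, n = 3).

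Sepsecs, needed to make selenocysteine on its transfer RNA (chr5:52669286-52670136), stood at 10.8, 45.0 and 18.6 in B16_untreated, 0.863, 4.28 and 37.5 in B16_IFNg, against 69.1, 61.7 and 67.2 in Res499. The region shared by the starts of Slc5a6, a vitamin transporter, and Atraid (chr5:31047899-31049064) stood at 67.3, 30.6 and 55.3 in B16_untreated, 68.7, 81.5 and 81.8 in B16_IFNg, against 94.1, 84.7 and 93.7 in Res499. There the B16_IFNg libraries were above the B16_untreated ones as well. The promoter of Afap1, an actin filament-associated protein (chr5:35893053-35894017), stood at 36.9, 54.7 and 41.8, at 36.1, 50.6 and 43.7, and at 86.9, 74.8 and 88.0 in B16_untreated, B16_IFNg and Res499. For Afap1 the B16_IFNg and B16_untreated values overlapped, and all Res499 values were above both.

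Bcl7b encodes a subunit of SWI/SNF remodelling complexes. Its promoter (chr5:135168162-135169062) had percentiles of 72.5, 29.4 and 51.4 in B16_untreated, 54.4, 75.2 and 60.5 in B16_IFNg, against 92.9, 86.0 and 83.6 in Res499. Pomp, the assembly chaperone of the proteasome (chr5:147860091-147860973), had 32.7, 27.3 and 35.3, then 46.5, 32.5 and 46.7, then 87.6, 51.2 and 50.3 in the same order of groups. One Res499 library was far above the other two at Pomp. Dipk1a (chr5:107986346-107987499), Fam193a (chr5:34369354-34370598) and Fam220a (chr5:143547777-143548944) had mean percentiles of 36.6, 47.2 and 40.4 in B16_untreated and 69.4, 78.1 and 70.6 in Res499.

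A pair of genes for centromere proteins, Cenpc1 and Cenpa, went opposite ways. Cenpc1 (chr5:86065176-86066772), in window 9, stood at 33.95, 27.0 and 51.9 in B16_untreated, 76.2, 22.3 and 59.3 in B16_IFNg, against 55.9, 85.4 and 78.6 in Res499. Cenpa (chr5:30666673-30667116), the centromeric histone H3 variant in window 4, stood at 37.3, 37.6 and 47.8 in B16_untreated, 38.7, 60.8 and 37.3 in B16_IFNg, against 21.6, 25.5 and 36.9 in Res499. Cenpc1 thus ranked higher in Res499 in a window where the local background overlapped, and Cenpa ranked lower in one where the background was higher. At Cenpa, as at the Fis1 and Lin54 regions described next, the local background was still higher in all Res499 libraries than in any B16_untreated library.

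The other regions that ranked lowest relative to B16_untreated were spread over windows 4, 11 and 14. The region at an internal start of Fis1, a mitochondrial fission gene (chr5:136961732-136962772), had 63.0, 49.1 and 58.4 in B16_untreated, 36.2, 23.4 and 58.1 in B16_IFNg, against 21.5, 33.6 and 41.3 in Res499. The promoter of the corepressor gene Ctbp1 (chr5:33274076-33275398) had 68.7, 72.4 and 84.8, then 64.6, 57.6 and 71.3, then 38.8, 62.2 and 53.7. Tsc22d4 held a region inside the gene (chr5:137759850-137760523) at 81.6, 98.4 and 98.0 in B16_untreated and 80.1, 78.0 and 66.7 in Res499. A region 12117 bp from Lin54 (chr5:100429149-100429916), at a non-coding gene start, had 61.6, 68.9 and 72.0 in B16_untreated and 57.4, 35.2 and 51.3 in Res499.

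**Figure D4:**
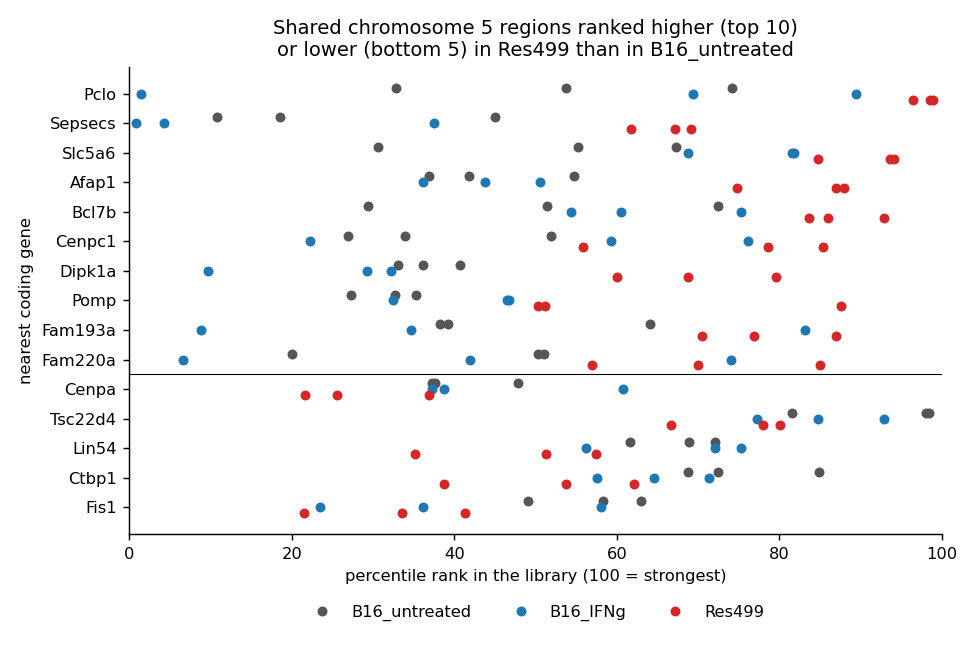
Percentile rank in each of the 9 libraries for the 10 shared regions with the largest and the 5 with the lowest rank differences between Res499 and B16_untreated, labelled by nearest coding gene. At Pclo the Res499 points lie between 96.5 and 98.9, and at Cenpa they lie between 21.6 and 36.9. The separation of red and grey points is how these regions were chosen.

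Regions that appeared or disappeared from the used peaks were few. Against B16_untreated, Res499 had 10 chromosome 5 regions called in all of its libraries and in none of the other group (gained), where 0.596% of all regions called in either group were, and 6 lost, where 0.984% were. Of the 877 chromosome 5 regions called in either group, these are 1.14% and 0.684%. The direction of these counts turned with the setting. All deposited peaks gave 0 gained and 65 lost, and requiring a peak to cover 50% of its region gave 4 and 21. Shares over all regions were not computed at these settings, and the full lists differ in length. Whether the turn is particular to chromosome 5 can therefore not be read from these counts. Under a lenient rule (at least 2 of 3 libraries against at most 1), 130 were gained (14.8%, against 8.44% of all regions) and 62 lost (7.07%, against 11.2%). By stretch, the lenient counts were 52 gained (14.4%) and 21 lost (5.83%) of 360 regions from 0 to 80 Mb. From 80 to 110 Mb they were 8 (7.77%) and 12 (11.65%) of 103. From 110 to 140 Mb they were 60 (19.9%) and 21 (6.95%) of 302. From 140 to 160 Mb they were 10 (8.93%) and 8 (7.14%) of 112. The gained shares from 80 to 110 Mb and from 140 to 160 Mb lay near the 8.44% of all regions. The lenient gained regions lay at a gene end in 63.1% of cases and the lost ones in 32.3%.

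Gained did not mean newly detectable. Of the 130 regions, 129 had a peak in the full list of at least 1 B16_untreated library, and 107 had one in all 3. The full lists of B16_untreated are longer, with 15045, 25374 and 20139 peaks against 15396, 9221 and 11768 in Res499. Of the 62 lost regions, 55 had a peak in at least 1 full Res499 list and 2 in all 3. In the 106 RefSeq promoters that overlap the lenient gained regions, all 6 motifs had a higher share than in the chromosome's promoters with a region: 4.72% for ISRE, 11.3% for GAS, 4.72% for AP-1, 17.9% for the E-box, 9.43% for the M-box and 4.72% for CRE, from 5 to 19 promoters each. The promoters compared include 294 in regions called in every library, which could not be gained. Those 294 held 1.36% ISRE, 5.78% GAS, 0.680% AP-1, 10.2% E-box, 4.08% M-box and 3.74% CRE. The higher shares are therefore not set against promoters that could have been gained.

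Gene ends made up 6 of the 10 gained regions, and 2 more lay at internal starts. Hectd4, a putative ubiquitin ligase (chr5:121220078-121220700, covering 191 bases of the promoter shown above), was called at percentiles of 53.1, 15.2 and 66.4 in B16_IFNg, against 55.3, 43.8 and 27.2 in Res499. It was absent from the used peaks of all B16_untreated libraries. Ift81, a cilium transport gene (chr5:122614094-122614585), was likewise present in the 3 B16_IFNg libraries at 4.22, 45.8 and 16.9 and in the 3 Res499 libraries at 41.5, 31.5 and 41.2. Med28, a Mediator subunit (chr5:45520008-45520620), was called at 35.9 and 38.8 in B16_IFNg replicates 1 and 2 and at 23.2, 45.9 and 10.9 in Res499.

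The region between the divergent starts of Dnajc2, a ribosome-associated chaperone gene, and Psmc2, a proteasome ATPase gene (chr5:21784981-21785460), was called at 17.0 in B16_IFNg replicate 3 and at 22.3, 54.5 and 25.1 in Res499. Coq2, of coenzyme Q synthesis (chr5:100673868-100674326), had 10.9 and 22.9 in B16_IFNg replicates 1 and 3 and 24.0, 1.95 and 11.7 in Res499, all in the lower part of the lists. Acad12, an acyl-CoA dehydrogenase gene (chr5:121618752-121619358), had 15.9 and 2.85 in B16_IFNg replicates 2 and 3 and 53.5, 19.7 and 28.8 in Res499. Regions at internal starts of Tmem248 (chr5:130222187-130222706) and Hip1 (chr5:135488612-135489524) stood at 68.1, 26.2 and 17.0 and at 28.9, 39.2 and 5.67 in Res499. These regions were near the cutoff in some libraries and well inside the list in others.

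Away from promoters, a region inside Muc3, a mucin gene (chr5:137152206-137152509), had the best mean percentile of the 10, with 66.8, 80.3 and 35.2 in Res499 and 1.47 in B16_IFNg replicate 1. A region between genes, 24963 bp from Mvk (chr5:114485554-114486176), was called in Res499 alone, at 3.01, 10.4 and 5.78, close to the cutoff.

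The 6 lost regions lay away from the annotated ends of coding genes, 5 inside a gene and 1 between genes. A region inside Foxk1, a forkhead factor gene (chr5:142430880-142431464), was called at 18.5, 46.6 and 77.3 in B16_untreated, 73.6, 11.5 and 53.1 in B16_IFNg, and in no Res499 library. The region near the ends of Foxk1 itself behaved differently, with used peaks in 1 B16_untreated, 2 B16_IFNg and 3 Res499 libraries. The full lists of all libraries held a peak at that region. A region inside Prkar1b, a regulatory subunit gene of protein kinase A (chr5:139051315-139051812), was called at 34.3, 40.7 and 46.8 in B16_untreated and in no other library. A region 14028 bp from Kmt2e (chr5:23418346-23419008) was called at 14.4, 10.1 and 13.6 in B16_untreated and in no other library.

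Scarb2, a lysosomal membrane protein gene (chr5:92493180-92493774), held an internal region at 17.5, 50.3 and 27.2 in B16_untreated. The internal regions of Rufy3 (chr5:88583298-88583577), at an annotated internal start, and Tmprss11a (chr5:86461012-86461620) stood at 16.6, 17.5 and 10.4 and at 1.59, 33.2 and 8.07. These 3 regions lie in windows 9 and 10. The Kmt2e and Scarb2 regions had no peak in any full Res499 list.

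**Figure D5:**
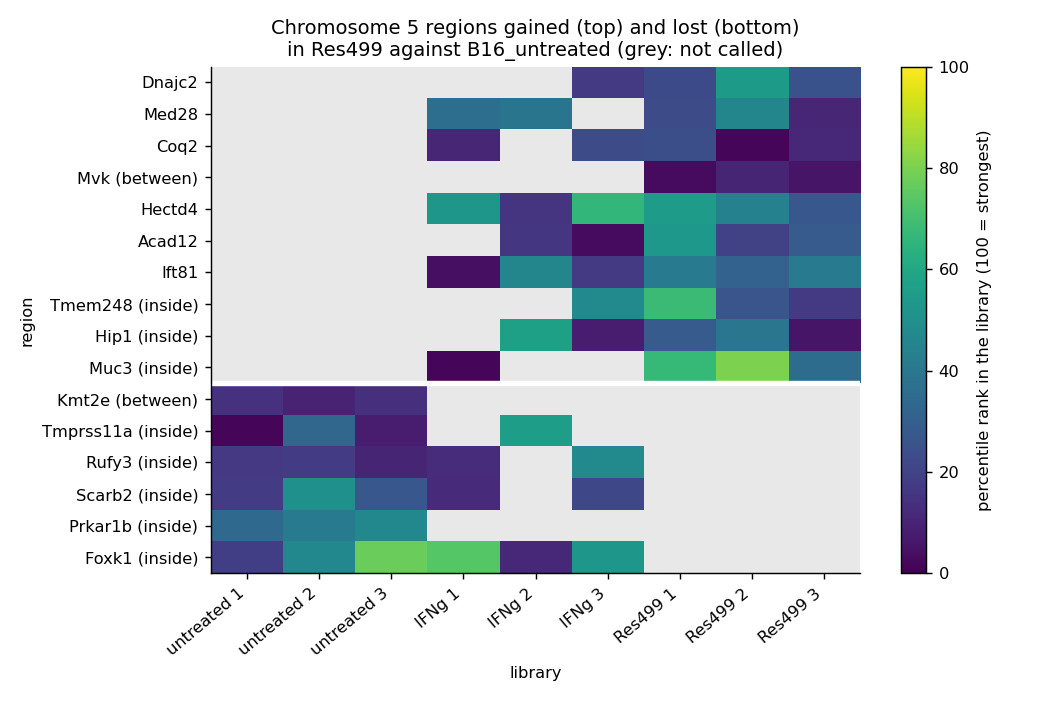
Percentile rank in each library (colour, 100 = strongest, grey = not among the used peaks) for the 10 chromosome 5 regions gained and the 6 lost in Res499 against B16_untreated. Hectd4 and Ift81 are coloured in all B16_IFNg libraries too, and Prkar1b and the region near Kmt2e are coloured in B16_untreated alone.

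Between B16_IFNg and B16_untreated, fewer chromosome 5 regions separated the groups. B16_IFNg gained 6 regions against B16_untreated (0.739%, against 0.427% of all regions) and lost 6 (0.739%, against 0.612%). Of 249 shared regions 10 ranked higher without overlap (5.22% of all) and 13 lower (4.88%), shares of 4.02% and 5.22% that lie near the genome's. In local background 31 were higher (12.4%, against 7.56% of all) and 12 lower (4.82%, against 6.84%). In pileup 10 were higher (4.02%, against 4.99%) and 7 lower (2.81%, against 4.68%). Of 15 windows of 10 Mb, 1 was higher in rank (4.53% of all windows) and 1 lower (6.17%). In local background 2 of 15 were higher (6.58%) and none lower (7.0%). In used peaks 3 of 16 were higher (3.47%) and none lower (1.93%). The lenient rule gave 95 gained (11.7%, against 8.46% of all) and 69 lost (8.50%, against 9.89%). The gained regions were the Hectd4 and Ift81 regions and the promoters of Lrpap1, a chaperone of lipoprotein receptors (chr5:35105503-35106083), Srp72, of the signal recognition particle (chr5:76974421-76975069), Sppl3, an intramembrane protease (chr5:115010830-115011641), and Git2 with Ankrd13a (chr5:114774539-114774957).

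Lrpap1 stood at 43.4, 68.1 and 6.69 in B16_IFNg, Sppl3 at 61.4, 35.3 and 8.74, and Srp72 at 58.1, 4.04 and 4.31. No replicate was the lowest at all 3. The lost regions were those inside Prkar1b and near Kmt2e, the promoter of Daglb (14.6, 9.98 and 26.8 in B16_untreated), and regions inside Klf3 near Gm38457 (chr5:64818266-64818866), inside Akap9 (chr5:3989679-3990011) and inside Stard13 (chr5:151218668-151219332). The Stard13 region stood at 27.1, 33.8 and 42.3 in B16_untreated and at 10.4, 13.0 and 57.5 in Res499, so that the interferon-exposed cells alone lacked it among the used peaks, although all 3 of their full lists held a peak there.

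Set directly against B16_IFNg, Res499 gained 5 regions (0.386% of all) and lost 1 (0.578%). Those gained were the Stard13 and Mvk regions, a region 14692 bp from Slc4a1ap (27.1, 7.55 and 35.0 in Res499), one 9843 bp from Pisd (41.0, 85.9 and 6.28) and one at chr5:50168132-50168704 with no coding gene end within 50 kb (1.83, 29.3 and 72.5). The lost one was the region inside Foxk1. Of the shared regions, 27 ranked higher in Res499 without overlap (5.06% of all) and 6 lower (5.51%), and in local background 43 were higher (7.71% of all) and 5 lower (6.93%), and in pileup 40 were higher (6.15%) and 5 lower (5.8%). Under the lenient rule 104 were gained (8.1% of all) and 62 lost (9.43%). In local background 12 of 15 windows were above 0, of which 7 were higher without overlap (11.5% of all windows), and 2 were lower (10.3%), namely windows 9 and 11. The count of 7 was 2 with 4607 peaks per library and 3 with 50% cover of the region. In rank 3 windows were higher (7.0%) and none lower (4.94%), and in used peaks 6 were higher (8.11%) and none lower (7.34%).

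Interferon-induced genes of the chromosome mostly had no used peak. Of 19 listed, 16 were found on chromosome 5 in the gene table and 2 had a region within 1 kb of an end. Trafd1, a feedback regulator of innate immune signalling, had used peaks in 8 libraries, at 37.5, 31.1 and 20.9 in B16_untreated, 43.2 and 67.6 in B16_IFNg replicates 1 and 2, and 4.28, 42.8 and 18.0 in Res499. Oas1c was called in 1 B16_untreated, 1 B16_IFNg and all 3 Res499 libraries, the latter at 6.31, 35.9 and 39.4. Its full-list peaks were in 3 B16_untreated, 2 B16_IFNg and 3 Res499 libraries. The chemokine genes Cxcl9 and Cxcl10, the Gbp genes, Oas1a, Oas2, Oas3, Oasl1 and Oasl2 had no region in the used peaks of any library. In the full lists Cxcl10 and Oas2 had a peak in 1 B16_IFNg library each, and Oas1g had one in 2 B16_untreated libraries and in no B16_IFNg library.

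Of 16 genes of growth factor signalling, 6 had a region, and they were mostly downstream genes rather than receptors. Kdr, Pdgfra, Flt1, Flt3 and Fgfr3 had none, and Kit, the receptor that melanocytes need, had a used peak in Res499 replicate 2 alone at 8.57, with peaks in the full lists of 3 Res499, 1 B16_untreated and no B16_IFNg libraries. Rac1, a small GTPase of cell motility, stood at 23.3 and 6.40 in B16_untreated replicates 1 and 3, 42.9, 26.9 and 37.8 in B16_IFNg, against 58.4, 77.1 and 73.2 in Res499. The groups did not overlap at Rac1, and B16_untreated replicate 2 had no used peak there. Ptpn11, the phosphatase SHP2, stood at 45.3, 30.2 and 6.33, then 51.2, 63.8 and 52.4, then 37.9, 72.4 and 62.1, higher without overlap in B16_IFNg and with overlap in Res499. Rheb, which activates mTORC1, stood at 44.4, 28.6 and 64.6 in B16_untreated and 56.0, 64.0 and 74.7 in Res499, with overlap. Gna12 stood at 71.7, 87.7 and 92.2 in B16_untreated, 95.0, 81.0 and 91.5 in B16_IFNg, against 58.1, 82.8 and 94.7 in Res499, also with overlap. Sh2b3 stood at 83.2, 15.9 and 24.5 in B16_untreated and 73.0, 56.5 and 70.7 in Res499, with overlap. In B16_IFNg it was called in replicate 3 alone, at 50.3, though all 3 full B16_IFNg lists held a peak there.

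Of 16 genes of chromatin and transcription, 11 had a region and 7 were called in every library, none of which separated Res499 from B16_untreated. Nsd2, a histone H3 methyltransferase, stood at 67.0, 15.1 and 15.3 in B16_untreated, 17.0, 38.6 and 18.97 in B16_IFNg, against 72.2, 47.0 and 55.3 in Res499. It was above B16_IFNg without overlap, as was Trrap, a scaffold of acetyltransferase complexes, at 22.7, 51.6 and 47.5 in B16_IFNg, against 56.9, 91.9 and 71.0 in Res499. The Kmt2c and Baz1b regions overlapped in all groups. Rbpj, Msx1, Tbx3, Gtf2i and Setd1b had no used peak.

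Of 13 replication and cell cycle genes found in the table, 12 had a region. Anapc5, of the anaphase-promoting complex, was higher in Res499 than in B16_untreated without overlap, and overlapped with B16_IFNg, at 30.5, 51.8 and 51.5 in B16_untreated, 37.6, 74.8 and 64.8 in B16_IFNg, against 66.1, 64.0 and 78.9 in Res499. It lies in window 13, as does Anapc7 of the same complex, which was called in B16_untreated replicate 1 alone, at 18.0. The full lists held a peak at Anapc7 in 3 B16_untreated, 1 B16_IFNg and 1 Res499 libraries. Brca2, a recombination repair gene, was called in 1 B16_untreated library at 8.30, in the 3 B16_IFNg libraries at 30.3, 19.5 and 25.7, and in the 3 Res499 libraries at 1.31, 14.6 and 24.0. Rfc2, of the clamp loader, was called in 2 B16_untreated libraries at 11.7 and 9.63 and in 1 B16_IFNg library at 49.6. In Res499 it was called in all libraries at 63.9, 82.3 and 20.1. The full lists of all libraries held a peak at Brca2. At Rfc2 they did in 3 B16_untreated, 2 B16_IFNg and 3 Res499 libraries. Cdk5 was lower in B16_IFNg than in B16_untreated without overlap (53.2, 52.0 and 64.2 against 72.2, 65.2 and 78.6), and the 3 Res499 values of 80.2, 26.3 and 96.7 spread over both.

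All 9 protein synthesis genes found in the table had a region, and 3 were called in every library. None of the 3 separated the groups. Rplp0, a ribosomal stalk protein gene, stood at 21.1, 44.4 and 48.0 in B16_untreated, 41.9, 56.9 and 79.6 in B16_IFNg, against 19.4, 61.4 and 23.8 in Res499. The median rank difference of these 3 between Res499 and B16_untreated was -2.98 points.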

How the data were processed

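Peak lists from ATAC-seq of 9 libraries were used. CASAVA, cutadapt 1.9, Bowtie2 2.2.4, MACS2 and build GRCm38 (mm10) are named per the submitters' processing notes. MACS2 settings, duplicate removal and read shifting are not given in the sources used here. For each peak the authors deposited a score, a fold enrichment over local background (a ratio), −log10 p and −log10 q. These deposited values ranked peaks within a list and gave back the whole summit pileup and the local background of 99.99% to 100% of peaks, to within 0.01 in −log10 p. Reads per library are not known.

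Per library, 9214 peaks of chromosomes 1 to 19, X and Y were taken by −log10 p, with ties broken by fold, width and start. Peaks sharing at least 1 base were merged into regions. Gene positions and promoters come from RefSeq tables of GRCm38.p6, in which some promoters are missing, and a region took the name of the closest coding gene end up to 50 kb away. Python 3.11.15, pandas 2.3.3, numpy 2.4.6, scipy 1.17.1 and matplotlib 3.10.9 were used. Recovery assumed that fold is pileup plus 1 over background plus 1, and that p is a Poisson tail. The recovery of pileup and the shift measures were run on simulated data. The peaks simulated for the recovery were made with the same formulas, so this run cannot show whether the caller used them.

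Members, gene lists and alternatives were chosen with earlier results of these data known. Regions named are those gained or lost (up to 10 per direction), the 10 highest and 5 lowest rank differences among shared regions that separate Res499 from B16_untreated, and those of the lists. Chromosome M peaks (2 to 12 per library) were left out.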

Additional observations from a re-analysis of the deposited data

How the results depend on the processing

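The share, rank and background differences of Res499 from both other groups kept their direction in all settings run, while the balance of gained and lost regions against B16_untreated turned. The rank difference of B16_IFNg from B16_untreated, whose libraries overlapped, took either sign. The cause was not tested. Apart from the lenient rule, shares over all regions or windows were not computed at these settings. The counts below are therefore for chromosome 5 alone. With all deposited peaks, Res499 exceeded B16_untreated by 0.611 points in share, 3.69 in rank and 0.173 in background, and B16_IFNg by 0.382 points in share. B16_IFNg minus B16_untreated was -0.873 in rank. Gained and lost regions were 1 and 44 for B16_IFNg against B16_untreated and 0 and 65 for Res499 against B16_untreated, with 4 lost against B16_IFNg. Windows higher in rank were 5 and 6 for Res499 against B16_untreated and B16_IFNg. With 4607 peaks per library, Res499 exceeded B16_untreated by 1.29 in share and 0.178 in background, and B16_IFNg by 1.05 and 0.141. The rank difference of B16_IFNg was -0.943, its gained regions 3, and Res499 lost 1 against B16_untreated and gained 8 and lost 2 against B16_IFNg. Windows higher in rank were 0, 1 and 0 for B16_IFNg against B16_untreated and for Res499 against B16_untreated and B16_IFNg.

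Ranked by fold, the share differences of B16_IFNg and Res499 from B16_untreated were 0.130 and 0.716, and the rank differences -1.37 and 2.16, with 3.52 for Res499 against B16_IFNg. Res499 lost 10 and 2 regions, and 0 windows (B16_IFNg against B16_untreated) and 1 window (Res499 against B16_IFNg) were higher in rank. When a peak had to cover 50% of its region, Res499 exceeded B16_untreated by 6.41 in rank and 0.188 in background, and B16_IFNg by 6.81 and 0.171. B16_IFNg stood 0.017 above B16_untreated in background, lost 17 regions and had 0 windows higher in rank. Res499 gained 4 and lost 21 against B16_untreated and lost 4 against B16_IFNg. Under the lenient rule gained and lost regions were 95 and 69, 130 and 62, and 104 and 62 in the 3 comparisons (B16_IFNg against B16_untreated, Res499 against B16_untreated, Res499 against B16_IFNg). When absence from full lists was required they were 0 and 0, 0 and 2, and 0 and 0. With windows of 5 Mb, 5 and 5 were higher in rank in Res499, with 20 Mb 0 in B16_IFNg and 5 in Res499 against B16_IFNg, and with a start 5 Mb later 0 in B16_IFNg and 4 in Res499 against B16_untreated.

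Windows higher in background in Res499 were 3 and 2 (against B16_untreated and B16_IFNg) with 4607 peaks and 3 and 3 with 50% cover. With windows of 5 Mb they were 10 and 13, and of 20 Mb 6 and 4.

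Same-numbered libraries deviated together little, with r from -0.031 to 0.082 in 9 pairs (median 0.035). In the 18 other pairs r ran from -0.083 to 0.052 (median -0.007). All replicate 2 libraries are of the short fragment class and all replicate 3 libraries of the long class. Whether libraries of the same number shared a batch is not known. With a replicate block the share difference of Res499 from B16_untreated was 1.17, the rank difference 4.32 and the background difference 0.162. Leaving out 1 library at a time gave, in the same order of comparisons, shares of 0.253 to 0.476, 0.901 to 1.12 and 0.593 to 0.734, ranks of -0.446 to 1.0, 4.64 to 6.22 and 3.94 to 6.30, backgrounds of 0.016 to 0.050, 0.144 to 0.164 and 0.102 to 0.130, and pileups of -0.003 to 0.029, 0.125 to 0.152 and 0.104 to 0.142. Gained regions ranged over 6 to 24, 10 to 31 and 5 to 18, and lost ones over 6 to 16, 6 to 16 and 1 to 8. Windows higher in rank ranged over 0 to 2, 2 to 6 and 2 to 7, and in background over 1 to 6, 7 to 11 and 7 to 11. The class difference in share ranged over -0.318 to 0.072. Of 692 recomputed values at 49 named regions, 63 moved by more than the replicate spread (or, for gained and lost regions, by more than 1 library of 3) and 0 reversed. These regions were chosen because the groups separate there, so leaving out 1 library could not reverse them. A value of 0 was not counted as reversed, and rank regions no longer called in the libraries compared were skipped. The lack of reversals was thus largely set in advance.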
